A study of Mus musculus with 6 samples.

Results

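The neurotrophin and GDNF family receptors are the surface proteins through which sensory neurons read target-derived growth factors. They were followed here through 8 genes: the Trk tyrosine kinase genes Ntrk2 and Ntrk3, the pan-neurotrophin receptor gene Ngfr, the sorting receptor gene Sort1, the tyrosine kinase gene Ret and the ligand-binding co-receptor genes Gfra1, Gfra2 and Gfra3. They were taken by gene symbol from a table of 54242 symbols, and all 8 were found, with 49 listed transcripts. The rule did not use their values, but the set was chosen with earlier results of these data known. Messenger RNA was measured in L4-6 dorsal root ganglia (DRG), which hold the cell bodies of sensory neurons outside the spinal cord, of male C57bl/6 mice aged 8 to 10 weeks. One group had 10 days of intermittent fasting (fasted, 3 libraries) and the other ate ad libitum (fed, 3 libraries), and the labels put the death of both groups after 24 hours but do not say from which event these were counted. Ganglia of both groups were dissociated with Dispase II, collagenase and papain and passed through a BSA gradient that enriches neurons, so the RNA is of isolated cells rather than of intact ganglia. Since the labels leave out whether each library came from 1 mouse or from pooled mice, p-values reflect library-to-library spread, part of which may be technical.

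Neurotrophins bind Trk receptors, whose intracellular kinase domain starts the survival and growth signal, and all of them also bind the product of Ngfr, which has no kinase. GDNF family ligands bind a GFR-alpha protein, held at the membrane by a lipid anchor, and the complex then engages Ret, which carries the kinase. In adult mouse ganglia, Ntrk2 and Ntrk3 are known from classes of mechanoreceptors and proprioceptors, Ret and Gfra2 from non-peptidergic nociceptors, and Gfra3 from peptidergic nociceptors. Splicing gives Ntrk2 and Ntrk3 truncated receptors that keep the ligand-binding part and the membrane segment but lack the kinase; the truncated product of Ntrk2 is also known from glia.

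Values are TPM, which divide by transcript length and express each transcript as part of a library total of 1000000, so levels may be compared between genes; the sequencing depth behind a value is unknown. Between 14961 and 15065 genes reached 1 TPM in the fasted libraries, against 14988 to 15218 in the fed ones. Neuronal markers were abundant in every library, summing over 10 genes such as Prph, Isl1 and Tubb3 to between 19981 and 21179 TPM in fasted and between 18305 and 20285 TPM in fed libraries. Schwann cell markers (8 genes) summed to between 8308 and 9183 TPM in fasted and between 8005 and 8865 TPM in fed libraries, so glial RNA was also present. Of 81 marker genes of 13 cell types and neuron classes, 0 were listed at 0 in any library. Fed replicate 2 stood apart by its skeletal muscle RNA, with 8 muscle markers at 3273 TPM, against 59.1 to 271.0 TPM in fasted and 246 and 336 TPM in the other fed libraries. The 13 protein genes of the mitochondrial genome held 8.86% of its TPM, against 4.74% to 5.15% in fasted and 5.62% and 6.79% in the other fed libraries. Fold changes of the receptors and Trk isoform shares without that library are given with the results.

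The isoforms compared below differ in short coding stretches, shown here as GENCODE M21 gives them on GRCm38. For the 3 kinase genes, the last 30 coding bases that both isoforms share are in lower case, and the bases of the isoform's own end are in capitals. In Ntrk2 (plus strand) the long form Ntrk2-201 has 356 residues of its own after the branch, beginning at chr13:58985802-58985861. The truncated form Ntrk2-202 has 11, from chr13:58932023-58932060, ending in the stop codon.
Ntrk2-201: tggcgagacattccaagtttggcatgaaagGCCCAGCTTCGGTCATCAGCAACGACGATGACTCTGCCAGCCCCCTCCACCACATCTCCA
Ntrk2-202: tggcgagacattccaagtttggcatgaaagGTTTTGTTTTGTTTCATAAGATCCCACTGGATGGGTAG
In Ntrk3 (minus strand) the long form Ntrk3-201 has 296 own residues from chr7:78260355-78260414 onward, and the truncated form Ntrk3-202 has 83, from chr7:78304367-78304426 onward. Only the first 60 own bases of each are shown.
Ntrk3-201: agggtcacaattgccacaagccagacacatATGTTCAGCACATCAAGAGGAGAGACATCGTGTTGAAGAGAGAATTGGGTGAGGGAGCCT
Ntrk3-202: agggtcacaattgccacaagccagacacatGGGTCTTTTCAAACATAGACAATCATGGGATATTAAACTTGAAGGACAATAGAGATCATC
In Ret (minus strand) both forms carry the kinase and differ in the tail. Ret-201 ends in 51 own residues (chr6:118153853-118154010), and Ret-202 in 9 (chr6:118155256-118155287), each shown to its stop codon.
Ret-201: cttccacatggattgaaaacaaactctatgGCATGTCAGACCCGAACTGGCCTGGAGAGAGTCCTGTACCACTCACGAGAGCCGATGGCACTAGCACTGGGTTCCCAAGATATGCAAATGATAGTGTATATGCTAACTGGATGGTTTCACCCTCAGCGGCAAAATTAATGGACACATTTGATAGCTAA
Ret-202: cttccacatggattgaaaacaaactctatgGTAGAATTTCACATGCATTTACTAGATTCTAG
In Gfra1 (minus strand) the form Gfra1-203 lacks a 15-base coding stretch, 5 residues, at chr19:58392573-58392587 that Gfra1-201 and Gfra1-209 carry. It is in capitals between 15 flanking coding bases on each side.
Gfra1-201: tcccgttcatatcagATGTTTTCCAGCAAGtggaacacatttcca

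On GRCm38, Ngfr lies at chr11:95568818-95587735 (minus strand), Sort1 at chr3:108284082-108361511 (plus), Ntrk2 at chr13:58806569-59133970 (plus) and Ntrk3 at chr7:78175959-78738012 (minus). Ret lies at chr6:118151745-118197718 (minus), Gfra1 at chr19:58235604-58455909 (minus), Gfra2 at chr14:70890120-70979838 (plus) and Gfra3 at chr18:34689898-34720387 (minus). A gene's value here is the sum over its transcripts.

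The receptors spanned more than an order of magnitude in level, and their order was the same in all 6 libraries. Ngfr was highest, with a mean of 463 TPM over the 6 libraries (range 425 to 516 TPM), followed by Ret at 378 TPM (367 to 405 TPM). Gfra2 (mean 113 TPM, range 105 to 119 TPM) and Gfra1 (102 TPM, 96.2 to 110.1 TPM) came next. The ranges of this pair overlapped, although Gfra2 was above Gfra1 within each of the 6 libraries. Ntrk2 followed at 70.9 TPM (66.9 to 75 TPM), then Gfra3 at 60.4 TPM (54.7 to 66.4 TPM). Ntrk3 at 41.1 TPM (36.9 to 46.6 TPM) and Sort1 at 26.9 TPM (25.8 to 28.1 TPM) were lowest. Apart from Gfra2 and Gfra1, the ranges of neighbours in this order did not overlap. The coefficient of variation over all 6 libraries ran from 3.89% for Sort1 to 7.92% for Ntrk3. Among the 15097 genes averaging 1 TPM or more, which formed the tested set, Ngfr exceeded 98.0% and Sort1 59.8%.

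**Figure D1:**
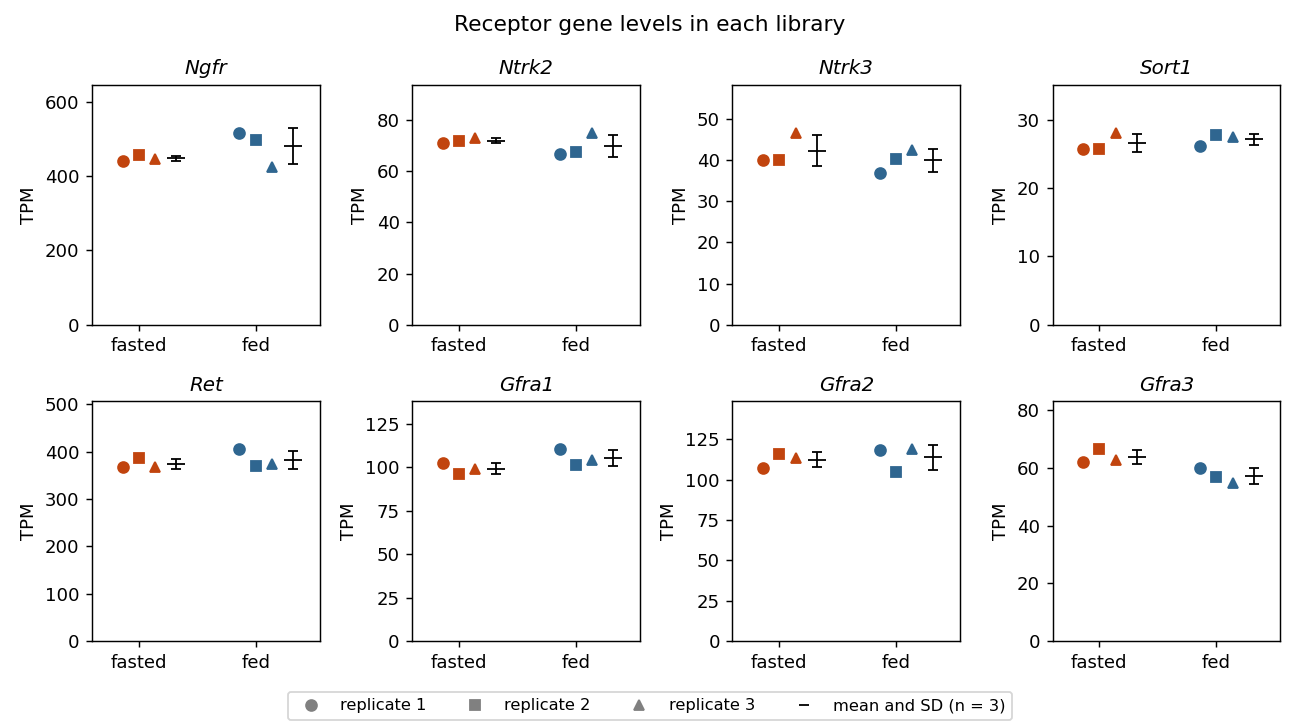
TPM of the 8 receptor genes in each library, with axes from 0; each panel has the 3 fasted libraries left and the 3 fed libraries right, the symbol gives the replicate number, and the black bar and whiskers are the mean and SD. Gfra3 is the one gene whose fasted values (61.9 to 66.4 TPM) all lie above the fed values (54.7 to 59.9 TPM).

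None of the 8 receptor genes changed past the threshold with fasting. Gene levels were compared as log2(TPM + 1) with limma, a linear model per gene fitted over the whole table, with Benjamini-Hochberg adjustment over all 15097 genes and a threshold of 0.05. Of the 8 members, 0 passed, 1 had an unadjusted p under 0.05, and 0.00662% of all tested genes passed. Fitted log2 fold changes were positive for 3 members and negative for 5, with a median of -0.03, while the median of all tested genes was 0.03 and 62.5% of them were above 0. The share above 0 was 52.9% under median-of-ratios scaling and 50.3% with mitochondrial genes left out. The lowest adjusted p of any member in any setting tried was 0.338 (limma). Without fed replicate 2, the log2 fold change was -0.07 for Ngfr, -0.02 for Sort1, 0.02 for Ntrk2 and 0.09 for Ntrk3. It was then -0.06 for Ret, -0.11 for Gfra1, -0.08 for Gfra2 and 0.15 for Gfra3, so all signs were as with all libraries.

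Ngfr, the receptor that all neurotrophins share, was at 441, 456 and 445 TPM in fasted libraries, against 516, 498 and 425 TPM in fed libraries. The fasted values were close together and lay within the fed range, since fed replicates 1 and 2 were the highest of the 6 and fed replicate 3 the lowest. The mean was 447 ± 7.54 TPM in fasted and 479 ± 48.2 TPM in fed libraries (SD, n = 3 each), and the log2 fold change was -0.10 (95% interval -0.26 to 0.07; limma, adjusted p = 0.63). Without fed replicate 3 the log2 fold change was -0.18, and without fed replicate 1 it was -0.04. Sort1, which encodes sortilin, a partner of Ngfr in binding uncleaved neurotrophins, was at 25.8, 25.8 and 28.1 TPM in fasted libraries, against 26.2, 27.8 and 27.5 TPM in fed libraries. The groups overlapped, and the log2 fold change was -0.03 (95% interval -0.16 to 0.09; limma, adjusted p = 0.83).

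The Trk genes also overlapped between the diets. Ntrk2, which encodes the BDNF receptor TrkB, was at 71.2, 71.7 and 72.9 TPM in fasted libraries, against 66.9, 67.7 and 75 TPM in fed libraries. Fed replicate 3 was above every fasted library and the other fed libraries below them, and the log2 fold change was 0.04 (95% interval -0.08 to 0.16; limma, adjusted p = 0.76). With 1 library left out it ran from 0.01 without fed replicate 1 to 0.09 without fed replicate 3, and it was 0.02 under median-of-ratios scaling. Ntrk3, which encodes TrkC, the receptor for the product of Ntf3, was at 40.0, 40.2 and 46.6 TPM in fasted libraries, against 36.9, 40.3 and 42.6 TPM in fed libraries. Fasted replicate 3 was the highest library and fed replicate 1 the lowest. The log2 fold change was 0.08 (95% interval -0.10 to 0.26; limma, adjusted p = 0.70), and 0.01 without fasted replicate 3 (0.02 without fed replicate 1). Markers of large myelinated neurons, where both Trk genes are known, overlapped too: 7 genes summed to between 748 and 856 TPM in fasted and between 787 and 1051 TPM in fed libraries. The 1051 TPM were those of fed replicate 2, and the other fed libraries had 787 and 818 TPM. One of the 7 markers, Pvalb, is also a gene of fast muscle fibres; it was at 201, 197 and 235 TPM in fasted libraries, against 215, 543 and 230 TPM in fed libraries. The ratio of Ngfr to the sum of Ntrk2 and Ntrk3 was 3.97, 4.07 and 3.72 in fasted libraries, against 4.97, 4.61 and 3.61 in fed libraries, again with fed replicates 1 and 2 on top.

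Ret, the shared signalling receptor of the GDNF family, was at 368, 386 and 367 TPM in fasted libraries, against 405, 370.0 and 374 TPM in fed libraries. The groups overlapped, with a log2 fold change of -0.04 (95% interval -0.14 to 0.07; limma, adjusted p = 0.78). Its sign depended on fed replicate 1, without which it was 0.01. Gfra1, the GDNF co-receptor gene, was at 102, 96.2 and 99.1 TPM in fasted libraries, against 110.1, 101.1 and 103.9 TPM in fed libraries. Fasted replicate 1 lay above fed replicate 2, and otherwise the fasted values were lower (log2 fold change -0.08, 95% interval -0.19 to 0.02; limma, adjusted p = 0.53). It was -0.05 without fed replicate 1. Gfra2, the neurturin co-receptor gene, was at 107, 116 and 113 TPM in fasted libraries, against 118, 105 and 119 TPM in fed libraries. Its groups overlapped fully, and its log2 fold change of -0.02 (95% interval -0.15 to 0.12; limma, adjusted p = 0.91) turned positive (0.01) without fasted replicate 1, fed replicate 1 or fed replicate 3.

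Gfra3, which encodes the artemin co-receptor, was the receptor with the smallest p. It was at 61.9, 66.4 and 62.6 TPM in fasted libraries, against 59.9, 56.9 and 54.7 TPM in fed libraries, so that every fasted value lay above every fed one. A gap of this kind in this direction was found for 12.7% of the 15097 tested genes, and 1 of the 8 members had one; 0 of 8 had one in the lower direction, against 5.07% of tested genes. The mean was 63.7 ± 2.41 TPM in fasted and 57.2 ± 2.63 TPM in fed libraries (SD, n = 3 each). The log2 fold change was 0.15 (standard error 0.05, 95% interval 0.04 to 0.27), a 1.11-fold difference, and did not pass (limma, adjusted p = 0.48). It ran from 0.12 to 0.19 over all alternatives, among them 0.13 under median-of-ratios scaling and 0.12 with mitochondrial genes left out. Peptidergic markers, the class in which Gfra3 is known, did not separate the diets: Calca, Tac1 and Adcyap1 summed to 3465, 3492 and 3303 TPM in fasted libraries, against 4028, 3991 and 3158 TPM in fed libraries. In bulk RNA such as this, a different number of cells of one class and a different amount of RNA per cell cannot be told apart. The sum of Gfra1, Gfra2 and Gfra3 over Ret was 0.74, 0.72 and 0.75 in fasted and 0.71, 0.71 and 0.74 in fed libraries. This ratio overlapped between the diets, and it leaves out Gfra4, a further GFR-alpha gene that is not a member. Gfra4 was at 39.7, 39.51 and 41.85 TPM in fasted libraries, against 39.21, 33.13 and 37.61 TPM in fed libraries (limma, adjusted p = 0.52).

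**Figure D2:**
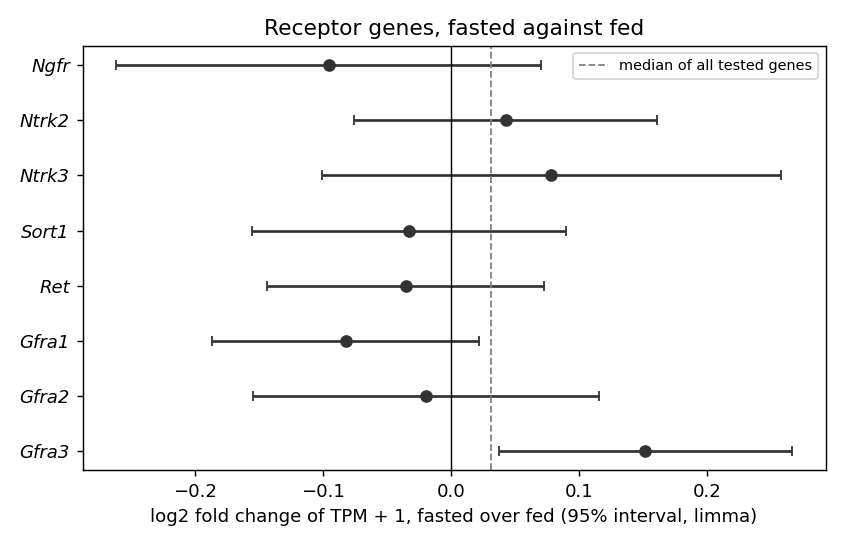
Fitted log2 fold changes of TPM + 1, fasted over fed, for the 8 receptor genes, as points with 95% intervals from limma; the solid line is 0 and the dashed line the median of all tested genes (0.03). Of the 8 intervals, that of Gfra3 (0.04 to 0.27) alone lies above 0, and its adjusted p is 0.48.

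At the level of transcripts, 23 of the 49 member transcripts had a mean of at least 1 TPM and were tested, and 7 were listed at 0 in every library. The fit over 33197 transcripts called 0 of these 23, against 0.0271% of all tested transcripts (limma), and 3 had an unadjusted p under 0.05. Of these, Gfra3-201 was higher in fasted libraries (4.49% of all tested transcripts had such a p and were higher), and Gfra1-201 and Ntrk2-204 were lower (2.71%). Fasted values lay above fed ones without overlap for 1 of the 23 (9.38% of all tested transcripts) and below them for 4 (4.98%). The 1 above was the single transcript of Gfra3. The 4 below were Gfra1-201, Ntrk2-204, Ntrk3-202 and Sort1-203. The estimates divide reads that isoforms share, and the uncertainty of that division is not in the table, so differences between isoforms carry an error beyond the spread between libraries.

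Both Trk genes were read as a mixture of kinase-coding and truncated transcripts, in opposite proportions. A coding transcript was counted as full-length where it reaches the stop codon of the longest annotated form of its gene, and as truncated where it ends at another stop codon. In Ntrk2 the truncated transcripts were the larger part. Ntrk2-202 averaged 33.1 ± 1.59 TPM in fasted and 32.5 ± 1.90 TPM in fed libraries (SD, n = 3 each), and the full-length Ntrk2-201 27.3 ± 1.09 TPM in fasted and 24.7 ± 2.02 TPM in fed libraries. In Ntrk3 the full-length Ntrk3-201 dominated, at 31.6 ± 4.21 TPM in fasted and 29.1 ± 2.84 TPM in fed libraries, over the truncated Ntrk3-202 at 4.90 ± 0.36 TPM in fasted and 5.90 ± 0.36 TPM in fed libraries. Forms of Ntrk3 that code for 839 and 864 residues instead of 825 averaged 0.30 and 0.29 TPM. The non-coding Ntrk3-219 averaged 2.92 TPM over all libraries.

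**Figure D3:**
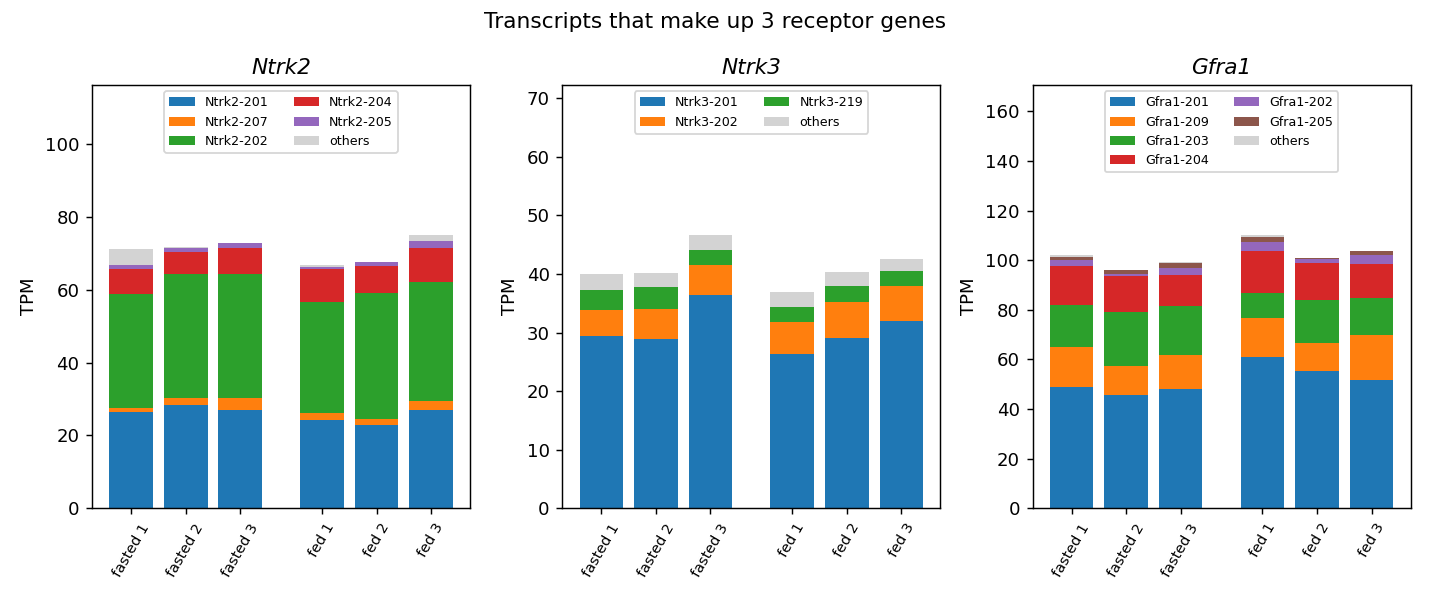
Stacked TPM of the transcripts of Ntrk2, Ntrk3 and Gfra1 in each library, fasted libraries left and fed libraries right, with transcripts under a mean of 1 TPM pooled in grey. Ntrk2-202 (green) is the largest part of Ntrk2, Ntrk3-201 (blue) is the largest part of Ntrk3 in every library, and Gfra1-201 (blue) is shorter in the fasted bars (45.5 to 48.8 TPM) than in the fed ones (51.6 to 60.8 TPM).

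The summed truncated share was lower in fasted libraries for both Trk genes, by 3 to 4 percentage points, but the main truncated form of Ntrk2 taken alone overlapped between the diets. Truncated transcripts made up 55.5%, 57.5% and 58.6% of Ntrk2 TPM in fasted libraries, against 60.2%, 63.6% and 58.8% in fed libraries. The groups did not overlap, but fasted replicate 3 and fed replicate 3 were almost equal. Ntrk2-202 alone made up 43.9%, 47.4% and 46.7% in fasted libraries, against 45.7%, 50.8% and 43.6% in fed libraries, a difference of -0.70 percentage points. Ntrk2-204, a lower form with the same coding sequence, was at 6.95, 5.99 and 7.23 TPM in fasted libraries, against 8.98, 7.58 and 9.35 TPM in fed libraries, and so held most of the gap in the sum. For Ntrk3 the truncated share was 11.2%, 12.9% and 10.8% in fasted libraries, against 15.0%, 15.5% and 13.9% in fed libraries, with a clear gap between the groups. The difference was -3.67 percentage points for Ntrk2 (57.2% ± 1.59 in fasted and 60.9% ± 2.47 in fed libraries, SD, n = 3 each) and -3.15 percentage points for Ntrk3 (11.6% ± 1.07 in fasted and 14.8% ± 0.81 in fed libraries). Each gave an exact permutation p of 0.1, the smallest that 3 against 3 libraries allow, and a value of 0.27 after adjustment over the 8 shares tested, so neither passed. Without fed replicate 2 the differences were -2.30 percentage points for Ntrk2 and -2.79 for Ntrk3. When full-length and truncated coding transcripts alone were counted, they were -3.09 percentage points for Ntrk2 and -3.30 for Ntrk3. A share within a gene does not depend on how a library is scaled.

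The full-length shares were less clearly separated. For Ntrk2 they were 38.7%, 42.4% and 41.4% in fasted libraries, against 38.9%, 36.4% and 39.2% in fed libraries (exact permutation p = 0.3). Fasted replicate 1 lay inside the fed range. In that library a short non-coding Ntrk2 transcript was listed at 3.60 TPM, which was at 0 in the other fasted libraries and at most 1.49 TPM in fed ones. The same transcript counts in the total behind that library's truncated share of 55.5%, the lowest of all libraries. When full-length and truncated coding transcripts alone were counted, the full-length share of Ntrk2 was 3.09 percentage points higher in fasted libraries and no longer overlapped (exact permutation p = 0.1). For Ntrk3 the full-length share was 74.5%, 73.5% and 79.7% in fasted libraries, against 72.4%, 73.4% and 77.0% in fed libraries (exact permutation p = 0.5), and the difference of 1.6 percentage points reversed to -0.28 without fasted replicate 3. Without fed replicate 2 the full-length difference was 1.77 percentage points for Ntrk2 (2.66 with all libraries) and 1.16 for Ntrk3. The ratio of full-length to truncated Ntrk3 was 6.63, 5.72 and 7.35 in fasted libraries, against 4.84, 4.73 and 5.54 in fed libraries.

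Glial and vascular markers were read beside these shares, because truncated TrkB is not specific to neurons. Satellite glia markers (4 genes) summed to between 818 and 909 TPM in fasted and between 872 and 948 TPM in fed libraries, which overlapped, as did the Schwann cell sums above. Endothelial markers (8 genes) summed to between 134 and 147 TPM in fasted and between 152 and 174 TPM in fed libraries, and macrophage markers (8 genes) to between 44.1 and 57.0 TPM in fasted and between 66.0 and 79.8 TPM in fed libraries, both lower in fasted libraries without overlap. Fibroblast (6 genes, 721 to 788 TPM in fasted and 706 to 776 TPM in fed libraries) and pericyte markers (6 genes, 116 to 147 TPM in fasted and 137 to 147 TPM in fed libraries) overlapped. Erythroid markers (5 genes) were higher in fasted libraries without overlap, at 1715 to 3277 TPM in fasted and 1284 to 1564 TPM in fed libraries. The part of these cells in the truncated shares was not tested.

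For Ret, the share of the long-tailed form was about 2 percentage points higher in fasted libraries, which the test could not call. The long-tailed Ret-201 made up 43.4%, 43.3% and 44.2% of Ret TPM in fasted libraries, against 41.4%, 41.1% and 42.3% in fed libraries, without overlap. The rest was the short-tailed Ret-202, which was thus the larger form in every library; its ratio to Ret-201 was 1.30, 1.31 and 1.26 in fasted libraries, against 1.42, 1.43 and 1.36 in fed libraries. The share of Ret-201 was 2.05 percentage points higher in fasted libraries (43.6% ± 0.48 in fasted and 41.6% ± 0.62 in fed libraries, SD, n = 3 each), again at the smallest exact permutation p of 0.1 (0.27 adjusted over the 8 shares). In TPM, Ret-202 was at 208, 219 and 205 in fasted libraries, against 237, 218 and 216 in fed libraries, while Ret-201 was at 160, 167 and 162 TPM in fasted libraries, against 167, 152 and 158 TPM in fed libraries; both forms overlapped.

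The forms of Gfra1 with and without the 5-residue stretch had fold changes of opposite sign, neither past the threshold. Gfra1-201 was at 48.8, 45.5 and 48.1 TPM in fasted libraries, against 60.8, 55.4 and 51.6 TPM in fed libraries, without overlap (log2 fold change -0.23 with a standard error of 0.07; limma, adjusted p = 0.66 over all transcripts). Gfra1-209, which codes for the same protein from another 5' end, was at 16.3, 12.0 and 13.8 TPM in fasted libraries, against 16.0, 11.3 and 18.2 TPM in fed libraries, and overlapped. The shorter Gfra1-203 was at 16.8, 21.5 and 19.9 TPM in fasted libraries, against 9.92, 17.1 and 15.1 TPM in fed libraries (log2 fold change 0.46 with a standard error of 0.20; limma, adjusted p = 0.67). Its share of Gfra1 was 16.4%, 22.3% and 20.0% in fasted libraries, against 9.01%, 17.0% and 14.5% in fed libraries. Fasted replicate 1 lay within the fed range, and the difference of 6.09 percentage points gave an exact permutation p of 0.2. It was 3.85 percentage points without fed replicate 1. The share of Gfra1-201, which was not among the shares tested, was lower in every fasted library, by 5.37 percentage points in the mean. It was 47.8%, 47.3% and 48.5% in fasted libraries, against 55.2%, 54.8% and 49.7% in fed libraries. Incomplete transcript models held another 17.5% to 19.8% of Gfra1 in fasted and 17.1% to 21.2% in fed libraries, which cannot be assigned to either form.

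In Gfra2 and Sort1 the main form kept most of the TPM in every library. Gfra2-201 held 82.8% to 90.0% of Gfra2 in fasted and 83.5% to 85.3% in fed libraries. Gfra2-203, which lacks 133 residues coded by a single contiguous stretch, held 10.0%, 11.6% and 14.6% in fasted libraries, against 10.9%, 11.1% and 9.77% in fed libraries (exact permutation p = 0.4). Sort1-203, which carries 33 more residues than Sort1-201, was at 3.53, 4.28 and 2.37 TPM in fasted libraries, against 4.40, 4.58 and 4.85 TPM in fed libraries, without overlap. Its share was 13.7%, 16.6% and 8.43% in fasted libraries, against 16.8%, 16.5% and 17.6% in fed libraries, with fasted replicate 2 inside the fed range (exact permutation p = 0.2). The difference of -4.05 percentage points was -1.81 without fasted replicate 3.

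Counted over the 8 shares, 3 did not overlap between the diets: truncated Ntrk2, truncated Ntrk3 and Ret-201. Of 18708 isoforms with a mean share of 5% to 95% in genes of at least 10 TPM, 11.1% did not overlap, 5.74% higher and 5.37% lower in fasted libraries. The shares of Ret, Gfra1, Gfra2 and Sort1 were added to the tests after their values had been seen, and the 2 shares of one Trk gene are not independent of each other. A limma fit over these isoforms, of the log2 ratio of an isoform to the rest of its gene, was added after the data were seen and called 0.0374% of them. It called 0 of the 8 shares, and 1 had an unadjusted p under 0.05, as did 5.75% of all these isoforms: truncated Ntrk3, with a log2 ratio lower by 0.35 (95% interval -0.68 to -0.03; limma, adjusted p = 0.85). The ratio of Gfra1-203 to the rest of Gfra1 was 0.65 higher (95% interval -0.07 to 1.36; limma, adjusted p = 0.86).

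**Figure D4:**
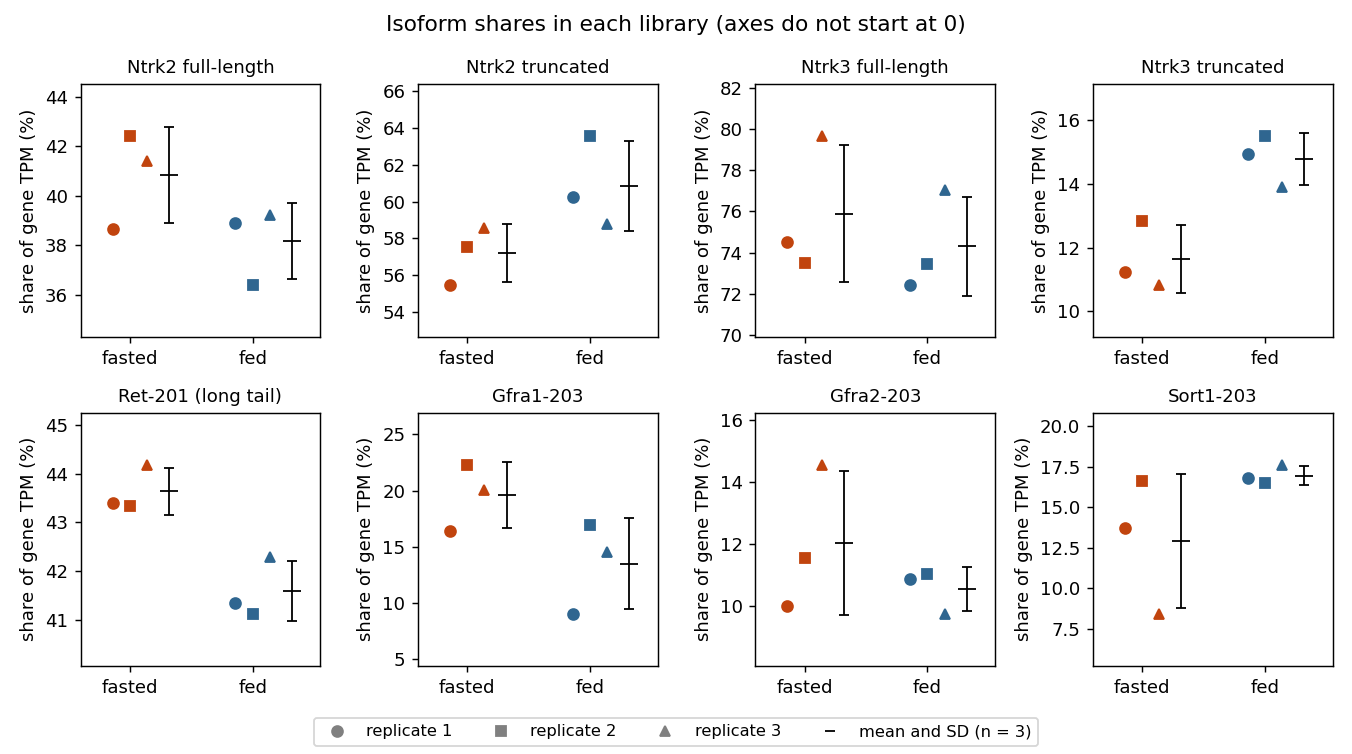
Share of gene TPM in percent for the 8 isoforms or isoform groups tested, in each library, with fasted left and fed right, symbols for replicate numbers, and mean and SD in black; the axes do not start at 0. Truncated Ntrk2 and Ntrk3 are lower and Ret-201 is higher in all fasted libraries than in any fed library, while the other 5 shares overlap.

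The other genes of these pathways were read from lists of ligands, co-receptors, adaptors, partners of Ngfr, proteases, inhibitors and induced genes. Of 70 genes, 65 were tested and 0 passed in either direction (limma). The fitted log2 fold change was positive for 43 and negative for 22, with a median of 0.03 like that of all tested genes. An unadjusted p under 0.05 was found for 8 higher genes (6.72% of all tested genes) and 4 lower ones (3.22%). Fasted values lay above fed ones without overlap for 15 genes (12.7% of all tested genes) and below them for 4 (5.07%).

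Of the ligands, 4 of 8 reached the level for testing. Bdnf, which sensory neurons make themselves, was at 19.3, 20.9 and 20.0 TPM in fasted libraries, against 29.8, 29.7 and 19.0 TPM in fed libraries (log2 fold change -0.34 with a standard error of 0.16; limma, adjusted p = 0.52). Fed replicate 3 was the lowest of the 6 and the other fed libraries stood well above the rest, the same order as for Ngfr. Ntf3 was at 1.16, 0.75 and 1.14 TPM in fasted libraries, against 1.61, 1.20 and 1.03 TPM in fed libraries (limma, adjusted p = 0.69). Nrtn averaged under 3 TPM in both groups, Ntf5, Gdnf and Artn were below 0.2 TPM in every library, and Pspn was listed at 0.

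Of the 14 tested co-receptors and related receptors, 10 had a positive fold change. Sorl1, a sorting receptor of the same family as sortilin, was at 72.5, 70.1 and 73.8 TPM in fasted libraries, against 62.3, 64.5 and 65.3 TPM in fed libraries (log2 fold change 0.17 with a standard error of 0.04; limma, adjusted p = 0.42). Lingo1, which encodes a partner of Ngfr in the Nogo receptor complex, was at 69.5, 70.2 and 68.8 TPM in fasted libraries, against 61.1, 58.7 and 64.3 TPM in fed libraries (log2 fold change 0.18 with a standard error of 0.04; limma, adjusted p = 0.42). Both were higher in every fasted library. Gfral was listed at 0 in all 6.

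Of the 21 adaptors and first effectors, 15 had a positive fold change. Shc1, an adaptor bound by active Trk and Ret receptors, was at 102, 112 and 96.6 TPM in fasted libraries, against 136, 137 and 116 TPM in fed libraries, lower in every fasted library (log2 fold change -0.32 with a standard error of 0.08; limma, adjusted p = 0.42). Frs2, which competes with Shc1 for a docking site on Trk receptors, was at 18.2, 18.7 and 18.3 TPM in fasted libraries, against 15.6, 16.6 and 16.5 TPM in fed libraries, higher in every fasted library (log2 fold change 0.17; limma, adjusted p = 0.45). Among partners of Ngfr, 4 of 8 had a positive fold change; Rhoa (261, 262 and 259 TPM in fasted libraries, against 254, 245 and 252 TPM in fed libraries) and Ripk2 (5.36, 6.87 and 6.61 TPM in fasted libraries, against 6.92, 7.87 and 6.63 TPM in fed libraries) had the smallest p (limma, adjusted p = 0.55 and 0.58). The 5 proteases had fold changes close to 0, from -0.05 for Adam17 to 0.08 for Adam10 on the log2 scale (limma, adjusted p = 0.82 and 0.63).

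Of 7 inhibitors, Dusp6, a phosphatase that acts on ERK, was at 17.6, 17.9 and 16.6 TPM in fasted libraries, against 14.9, 13.0 and 15.9 TPM in fed libraries, higher in every fasted library (log2 fold change 0.24 with a standard error of 0.08; limma, adjusted p = 0.48). Spry1 followed it, lower in mean (2.34, 3.13 and 2.71 TPM in fasted libraries, against 3.74, 3.90 and 2.93 TPM in fed libraries; limma, adjusted p = 0.52). Of the 6 genes listed as induced by neurotrophins, 4 had a positive fold change and 2 a negative one. Whether neurotrophin signalling set their levels in these dissociated cells was not tested. Egr3, a transcription factor gene, was at 5.46, 5.63 and 5.47 TPM in fasted libraries, against 2.15, 3.31 and 3.76 TPM in fed libraries (log2 fold change 0.70 with a standard error of 0.15; limma, adjusted p = 0.42). Vgf, which encodes a secreted neuropeptide precursor, was at 77.7, 91.7 and 73.5 TPM in fasted libraries, against 131.4, 137.7 and 82.2 TPM in fed libraries (log2 fold change -0.50 with a standard error of 0.19; limma, adjusted p = 0.50). As for Bdnf and Ngfr, fed replicates 1 and 2 were the highest of the 6 libraries.

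**Figure D5:**
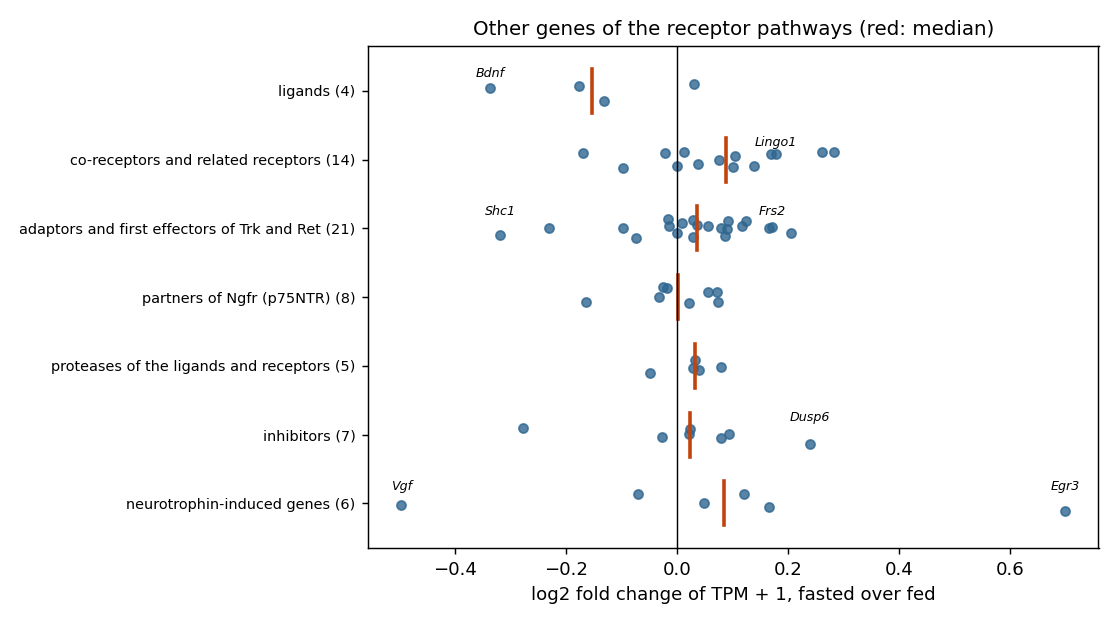
Fitted log2 fold changes of TPM + 1, fasted over fed, for the 65 tested genes of the 7 pathway lists, 1 point per gene (spread vertically to separate points), with the number of genes in brackets and each list's median as a red line. Egr3 (0.70) and Vgf (-0.50) lie farthest from 0 on either side, and no gene passed the adjusted threshold.

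For each receptor, the gene with the most similar profile over the 6 libraries was looked for among 9213 other genes averaging 10 TPM or more. Likeness was the root mean square difference of log2(TPM + 1) values centred on their own means, which lay between 0.008 and 0.018 for the matches found, while the members' own profiles had a root mean square of 0.049 to 0.10. The matches were Steap3 for Ngfr, Ccdc6 for Ntrk2, Secisbp2l for Ntrk3, Luc7l2 for Sort1, Kcnd1 for Ret, Armt1 for Gfra1, Pomt2 for Gfra2 and Xylt2 for Gfra3. Xylt2, for example, was at 24.5, 25.9 and 25.1 TPM in fasted libraries, against 23.5, 22.8 and 21.6 TPM in fed libraries. Its fasted values lay above its fed values, as for Gfra3, which follows from the choice of the closest profile. How close a best match would be by chance was not measured.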

How the data were processed

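The deposited table holds TPM per transcript, made by the authors, for 140992 transcripts and 6 libraries; Salmon 1.6.0, DESeq2 1.34.0, Trim Galore 0.6.6 and FastQC 0.11.9 stand in the submitters' processing notes beside the builds mm10 and GRCm38; their roles and order and the annotation release are not given in the sources used here. TPM keep no depth, so no count test was run and no counting interval is given. TPM were summed over transcripts per symbol (102 symbols had several gene identifiers), and genes or transcripts averaging 1 TPM or more were tested as log2(TPM + 1), which understates the change of low genes, with limma 3.58.1 in R 4.3.3 (trended empirical Bayes, two-sided, diet as the only term; for isoform ratios without trend). Coding ends and sequences come from GENCODE M21 on GRCm38, which holds 98.7% of the transcript versions deposited. Isoform shares were compared by two-sided exact permutation tests (scipy 1.17.1). The limma procedure was tested on simulated data with changes larger than those fitted for the members, so its power for changes of their size was not measured. The members and lists were chosen with earlier results of these data known. Genes named are the 8 members, the 2 genes of smallest p in each pathway list, markers, and the most similar gene of each member. Nrtn, Ntf5, Gdnf, Artn, Pspn, Gfra4, Gfral, Adam17, Adam10 and the marker gene Calca were named after their values were seen. For 1 listed gene no values are reported here. Tables and figures used Python 3.11.15, with matplotlib 3.10.9.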

Additional observations from a re-analysis of the deposited data

How the results depend on the processing

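No member passed under any setting (lowest adjusted p 0.34). Fold changes kept their sign except with 1 library left out: Gfra2 ran from -0.077 to 0.013 and Ret from -0.060 to 0.0052. The truncated shares kept their direction throughout (Ntrk2 from -4.71 to -2.30 and Ntrk3 from -3.76 to -2.75 percentage points with 1 library left out), and the full-length share of Ntrk3 ran from -0.28 to 2.97. For transcripts, the log2 fold change with 1 library left out ran from -0.26 to 0.22 for Ntrk2-207, -0.051 to 0.035 for Gfra2-201, -0.28 to 0.043 for Gfra1-209, -0.035 to 0.088 for Sort1-201, -0.12 to 0.37 for Ntrk2-205, -0.020 to 0.062 for Ntrk2-202 and -0.054 to 0.44 for Gfra1-205. The cause was not tested. The count of all genes called, 1, was 2 with a pseudocount of 0.1, 0 without a filter, 0 with protein-coding transcripts alone, and 1 to 7 with 1 library left out; 0 pathway genes were called in each. Same-numbered libraries deviated together only weakly (correlations 0.093, 0.114 and 0.066 across genes), not above 0.1 in every pair, although each library correlated best with its own number, a hint from the data and not from the design. With the replicate number as a block, 1 gene was called, and the exact paired p of both truncated shares was 0.25, the smallest possible. The unknown depth leaves the precision of low isoforms, such as those of Ntrk3 under 1 TPM, unmeasured.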

Other observations

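Some genes of these pathways, noted after their values were seen, had the same pair of fed libraries on top. Among the receptor genes this was Ngfr alone, and the share of all tested genes with this pair on top was not counted. Ngfr, Bdnf and Vgf were each highest in fed replicates 1 and 2, with fed replicate 3 near the fasted values. Other listed genes, among them Ntf3, Shc1, Ripk2 and Spry1, also had this pair on top. How many listed genes did was not counted, so the order cannot be called particular to the genes picked. Calca, which encodes a peptide of peptidergic nociceptors, had the same pair on top. It was at 2786, 2748 and 2610 TPM in fasted libraries, against 3306, 3248 and 2552 TPM in fed libraries. The other peptidergic markers, Tac1 and Adcyap1, did not. Tac1 was at 594.1, 641.9 and 602.7 TPM in fasted libraries, against 623.4, 646.5 and 519.6 TPM in fed libraries. Adcyap1 was at 84.3, 101.8 and 90.1 TPM in fasted libraries, against 98.6, 96.5 and 86.1 TPM in fed libraries. Of fed replicates 1 and 2, replicate 2 was the one with the high muscle and mitochondrial RNA and replicate 1 was not. The cause of the shared order was not tested.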
